A study of Mesocricetus auratus with 8 samples.

Results

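The genes described here are the subunits of respiratory complex I, taken as every row of the count table whose name is Nduf followed by a, b, c, s or v and a digit. The rule found 37 of 20360 rows, and it leaves out the Ndufaf assembly factors and the carrier protein gene Ndufab1. Of the 37, 35 encode subunits of the enzyme. The other 2 carry its name without belonging to it: Ndufa4, whose protein has been reassigned to cytochrome c oxidase, and Ndufa4l2, its hypoxia-induced paralog. All 37 names are in the RefSeq gene table of the golden hamster (assembly BCM_Maur_2.0).

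The counts came from polyA RNA of the hearts of 8 female golden hamsters (Mesocricetus auratus) aged 25 weeks, sequenced as 1 library for each animal code. The codes are M5F5 and M5F7, M5F12 and M5F16, M5F19 and M5F22, and M5F55 and M5F56. The series design names 2 genotypes, hamsters with loss of heterozygosity (LOH) at Myh6, the gene of alpha cardiac myosin heavy chain, and wild-type hamsters, all taken at an age that preceded dilated cardiomyopathy. No label ties a library to a genotype, so no library has a group, none is a replicate of another and no genotype comparison was made. How the Myh6 LOH arose is not given in the sources used here. The question that the data can answer is how complex I transcripts vary from heart to heart.

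Complex I is the entry point of electrons from NADH into the respiratory chain. It is shaped like an L. The N module at the tip of the matrix arm oxidises NADH, the Q module below it passes the electrons to ubiquinone, and the membrane arm, with a proximal and a distal part, pumps protons. A small core of subunits is shared with bacteria and carries the catalysis, and the many accessory subunits of mammals stabilise the enzyme. Some core subunits of the membrane arm are encoded in mitochondrial DNA; those genes, and the subunits of complexes III and IV other than Ndufa4, are not analysed here. Heart muscle is dense in mitochondria, and inherited defects of complex I subunits in people cause Leigh syndrome and cardiomyopathy.

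Totals ran from 13608500 counts in M5F56 to 15255764 in M5F19, a 1.12-fold difference. Levels are given as CPM, the usual depth-scaled count unit, of a library total scaled by TMM, the trimmed mean of M-values. CPM is not corrected for transcript length, so levels are compared between libraries and never between genes. The ventricular markers were abundant in every library, with 294678 to 362971 counts for myoglobin (Mb) and 155849 to 225732 for the ventricular light chain Myl2, while the adipocyte genes Adipoq and Lep had 0 counts throughout. Of the atrial markers Bmp10 had 0 counts throughout, Sln had 2 to 14 a library and Myl4 47 to 110. Nppa, the gene of atrial natriuretic peptide, had 767 to 13600 and Pam 19652 to 30256. M5F5, M5F7 and M5F12 stood apart for the complex I genes. The summed level, the common shift and the counts of wide-spanning members are also given with such a library left out.

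The complex I genes were most abundant in M5F5 and M5F7 and least abundant in M5F12. Together the 37 rows took 1.67% of all counts in M5F5 (Wilson 95% interval 1.664 to 1.677), 1.69% in M5F7 (1.683 to 1.697), 1.35% in M5F12 (1.347 to 1.359) and 1.39% in M5F16 (1.385 to 1.397). The share was 1.39% in M5F19 (1.382 to 1.394), 1.51% in M5F22 (1.502 to 1.514), 1.52% in M5F55 (1.516 to 1.529) and 1.55% in M5F56 (1.544 to 1.558). The intervals of M5F5 and M5F7 lay above those of the other 6 libraries, and the interval of M5F12 lay below the other 7. On the TMM scale the summed level was 16962 CPM in M5F5 and 16963 CPM in M5F7, against 13136 CPM in M5F12 and 13737 CPM in M5F16, and the highest library exceeded the lowest 1.29-fold. That fold was 1.24 without M5F12, and 1.29 without M5F5 or without M5F7. M5F5 and M5F7 had nearly the same sum, so leaving out either alone could hardly change the fold. They were not left out together. These intervals, and every p-value given here, cover counting error only. In RNA from heart tissue, fewer cells of a type and less of the RNA per cell cannot be told apart.

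**Figure D1:**
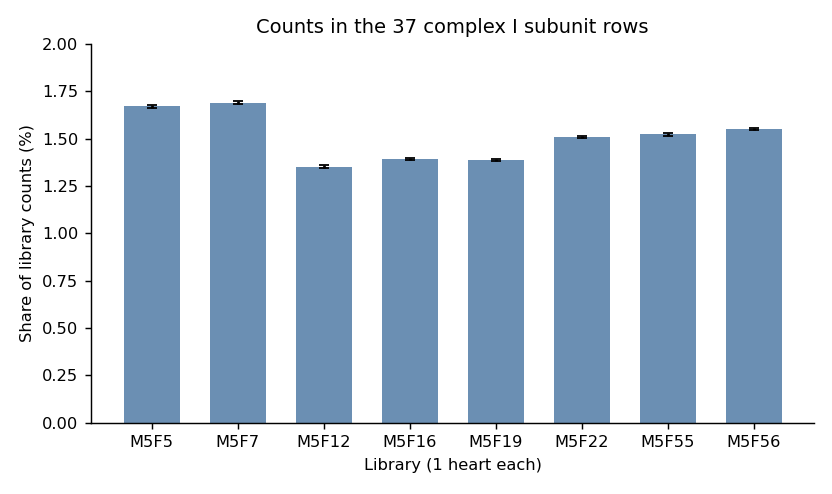
Share of each library's counts, in percent, that fell in the 37 complex I subunit rows, with bars for the 8 libraries and error bars for the Wilson 95% interval. M5F5 and M5F7 stand highest at 1.67% and 1.69%, and M5F12 is lowest at 1.35%.

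The same order of libraries recurred gene by gene. The highest value lay in M5F5 or M5F7 for 34 of the 37 members, against 34.2% of the 10909 genes tested, those with a mean of 50 or more counts. The lowest value lay in M5F12 or M5F16 for 34 members, against 25.9% of the genes tested; with plain totals in place of TMM the count of 34 highest did not change, and that of lowest was 29, against 18.0% of the genes tested. Both held for 33 members, against 15.4%. These pairs of libraries were picked after the values were seen, so the counts describe the pattern and do not test it. Neither count was taken again with a library of its own pair left out. M5F5 and M5F7 were the 2 highest libraries of 32 members, as for 14.7% of the genes tested, and M5F12 and M5F16 the 2 lowest of 25 members, as for 7.22%. The 4 members outside the pattern were the core subunits Ndufs1 and Ndufv1, the accessory subunit Ndufa10 and the paralog Ndufa4l2.

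The shift common to the members was put as a library deviation, the median over the 37 rows of log2 CPM minus the gene's own median over the 8 libraries. It was 0.21 in M5F5, 0.22 in M5F7, -0.24 in M5F12 and -0.16 in M5F16. On the TMM scale the other 4 libraries lay close to the members' own medians, at -0.05 in M5F19, 0.02 in M5F22, 0.01 in M5F55 and -0.01 in M5F56. The place of M5F19 depended on the scaling: with plain totals it was at -0.14, beside M5F16 at -0.16, while M5F22 was at -0.01 and M5F56 at 0.04. From M5F12 to M5F7 the common shift therefore covered 0.45 on the log2 scale, or 1.37-fold. The shift covered 0.39 without M5F12, and 0.46 without M5F5 or without M5F7. M5F5 and M5F7 had nearly the same deviation, so leaving out either alone could hardly narrow the shift. Over all genes tested the same deviation was between -0.01 and 0.01, which TMM scaling largely fixes, and with plain totals it ran from -0.04 in M5F19 to 0.05 in M5F56.

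**Figure D2:**
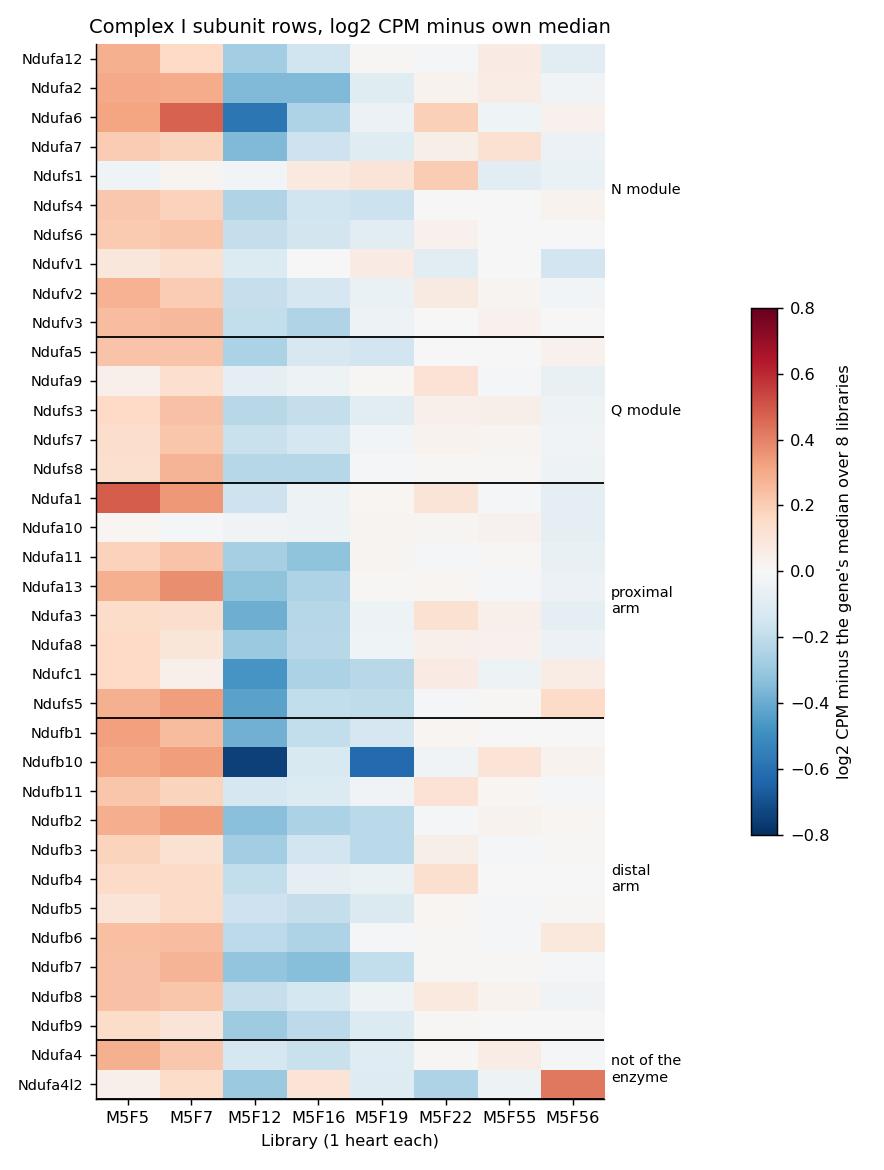
Log2 CPM of the complex I subunit rows named in the text minus their own median over the 8 libraries, with genes down the page grouped by module and libraries across. Red is above and blue below the median; the M5F5 and M5F7 columns are red and the M5F12 and M5F16 columns blue for nearly all rows, with library deviations of 0.21, 0.22, -0.24 and -0.16 on the log2 scale.

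The differences between hearts were small in size. By a chi-square test of counts against equal relative abundance, with Benjamini-Hochberg adjustment over all genes tested, the libraries differed for all 37 members, against 86.4% of the genes tested. Ndufa4l2 had the largest adjusted p of the 37 in this chi-square test, 3.47e-03, and was not past the threshold of 0.05 without M5F56, which left 36 members. The highest library exceeded the lowest by 1.40-fold for the median member, against 1.45-fold for the median gene, and 22 members spanned less than the median gene. With the top and bottom library of each gene set aside, the medians were 1.28-fold for the members and 1.25-fold for all genes tested.

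A span of 1.5-fold or more was reached by 11 of the 37 members, against 42.2% of the genes tested. Among genes with a mean of 500 or more counts it was 9 of 35 members, against 26.4% of such genes. Without M5F12 the count over all members was 7. A span of 2-fold or more was reached by Ndufb10 and Ndufa6 alone, 2 of 37 members against 13.9%. That count was 1 without M5F7 and 0 without M5F12. Ndufb7, at 1.52-fold, lay just inside the 1.5-fold limit, and Ndufa12, at 1.48-fold, just outside it.

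**Figure D3:**
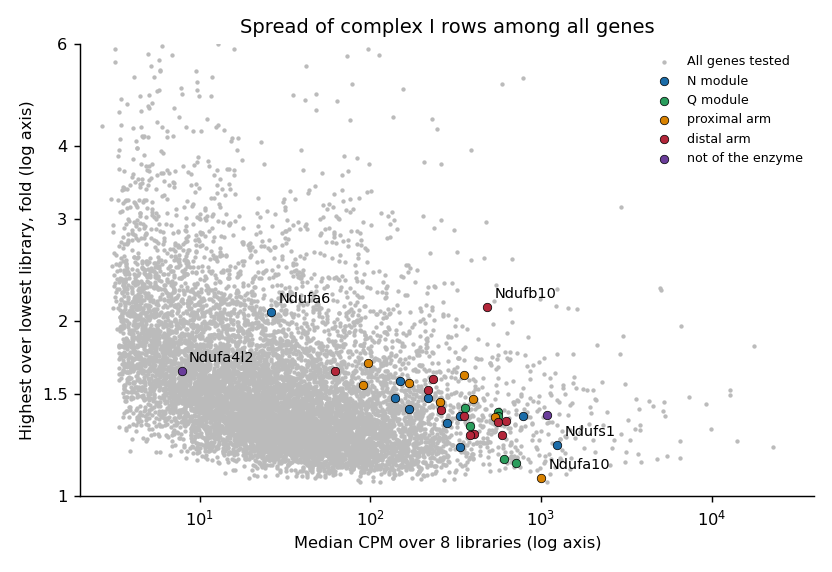
Highest-over-lowest fold of each gene against its median CPM, both on log axes, with complex I members coloured by module over all 10909 genes tested in grey; 44 genes, none of them a member, fall outside the axes. Ndufb10 at 2.12-fold and Ndufa6 at 2.07-fold are the widest members and Ndufa10 at 1.08-fold is the narrowest.

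The N module, which holds the flavin and most of the iron-sulfur clusters, had 10 members with a median span of 1.39-fold. Of these, 2 spanned 1.5-fold or more, against 42.2% of the genes tested. Ndufv1, the core subunit that binds NADH and the flavin, had 301 CPM in its lowest library M5F56, a median of 334 and 365 CPM in its highest, M5F7. Its partner Ndufv2, which carries an iron-sulfur cluster, had 690 CPM in M5F12, a median of 785 and 950 CPM in M5F5. Ndufv2 followed the common shift closely and Ndufv1 did not: after the library deviation was subtracted from each value, Ndufv2 kept a span of 1.05-fold and Ndufv1 a span of 1.23-fold. The Ndufv1 counts are uncertain, because another row, LOC101827130, is paired with the same symbol in the RefSeq table. That row is not a member by the rule, and it ran from 223 CPM in M5F12 to 329 CPM in M5F7, in the order of most members. Whether reads were divided between both rows was not tested.

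Ndufs1, the largest core subunit and the carrier of several iron-sulfur clusters, had an order of its own. Its level was 1217 CPM in M5F5, 1262 in M5F7, 1226 in M5F12, 1315 in M5F16, 1338 in M5F19, 1434 in M5F22, 1173 in M5F55 and 1199 CPM in M5F56. M5F22 and M5F19 were its highest libraries, M5F5 lay below its median of 1244 CPM, and the whole span was 1.22-fold. Once the common shift was subtracted, Ndufs1 was lowest in M5F5 and highest in M5F16, 1.40-fold apart.

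Among the accessory subunits of the N module, Ndufa6 had the widest span. Ndufa6, an LYR-motif protein that binds the mitochondrial acyl carrier protein, had 32.6 CPM in M5F5, 36.4 in M5F7, 17.5 in M5F12, 22.1 in M5F16, 25.3 in M5F19, 30.0 in M5F22, 25.6 in M5F55 and 26.8 CPM in M5F56. The exact 95% Poisson interval was 15.4 to 19.8 CPM in M5F12 and 33.4 to 39.6 CPM in M5F7, so the ends of its 2.07-fold span do not overlap in counting error. Its counts were low for a complex I row, at 253 to 531 a library. Without M5F12 its span, like that of every member, was under 2-fold.

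The other N module subunits kept the common order. Ndufa2, a thioredoxin-fold subunit, had 116 CPM in M5F12, a median of 148 and 183 CPM in M5F5. It was the other N module member past 1.5-fold, at 1.58-fold, and M5F12 and M5F16 were almost level for it. Ndufa7 had 109 CPM in M5F12, a median of 140 and 161 CPM in M5F5. Ndufa12, a relative of the assembly factor Ndufaf2, had 180 CPM in M5F12, a median of 218 and 265 CPM in M5F5. Ndufs4, whose loss in people causes Leigh syndrome and which is deleted in a widely used mouse model of that disease, had 286 CPM in M5F12, a median of 338 and 393 CPM in M5F5. Its span was 1.37-fold, near that of the median member. Ndufs6, which binds zinc and is needed for late assembly, had 247 CPM in M5F12, a median of 282 and 330 CPM in M5F7. Ndufv3 had 144 CPM in M5F16, a median of 170 and 203 CPM in M5F7.

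All 6 members of the Q module were highest in M5F5 or M5F7 and lowest in M5F12 or M5F16, and none spanned 1.5-fold; with plain totals 4 of the 6 were lowest in M5F12 or M5F16. Ndufa9, an accessory subunit that holds a bound nicotinamide nucleotide, had 626 CPM in M5F5, 667 in M5F7, 575 in M5F12, 591 in M5F16, 611 in M5F19, 658 in M5F22, 605 in M5F55 and 584 CPM in M5F56, a span of 1.16-fold. M5F7 was its highest library and M5F12 its lowest, as for most members, but M5F22 rather than M5F5 came second from the top and M5F56 rather than M5F16 second from the bottom.

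Ndufs7, Ndufs8 and Ndufs3, core subunits of the Q module, spanned more than Ndufa9. Ndufs7, which carries the last iron-sulfur cluster before ubiquinone, had 337 CPM in M5F12, a median of 382 and 446 CPM in M5F7. Ndufs8, which carries the clusters before it, had 305 CPM in M5F16, a median of 358 and 432 CPM in M5F7. Ndufs3, a core subunit without a cluster, had 481 CPM in M5F12, a median of 562 and 662 CPM in M5F7. For each of these core subunits M5F7 was highest, and the spans were 1.32-fold, 1.42-fold and 1.38-fold for Ndufs7, Ndufs8 and Ndufs3. The accessory subunit Ndufa5 had 472 CPM in M5F12, a median of 562 and 659 CPM in M5F5, a span of 1.40-fold.

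The 7 core subunits as a group had a median span of 1.32-fold, and 0 reached 1.5-fold. The 28 accessory subunits of the enzyme had a median span of 1.43-fold, and 10 reached 1.5-fold. Over all genes tested 42.2% reached it. The summed level of the accessory subunits ran from 8121 CPM in M5F12 to 10900 CPM in M5F5, and that of the core subunits from 4018 CPM in M5F12 to 4823 CPM in M5F7. The difference between core and accessory subunits was not tested, since members measured in the same libraries are not replicates.

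In the proximal membrane arm 8 members were measured, with a median span of 1.51-fold, and 4 of them spanned 1.5-fold or more, against 42.2% of the genes tested. Ndufa10, related to nucleoside kinases, was the steadiest of the 37. Its level was 1014 CPM in M5F5, 992 in M5F7, 983 in M5F12, 977 in M5F16, 1017 in M5F19, 1016 in M5F22, 1029 in M5F55 and 956 CPM in M5F56. The highest library, M5F55, exceeded the lowest, M5F56, by 1.08-fold, and neither M5F5 nor M5F7 stood out. Because Ndufa10 did not follow the other members, subtracting the common shift of the 37 rows widened its span to 1.36-fold.

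Ndufa13, also known as GRIM-19, a factor in interferon-induced cell death, followed the common order over a wider span. It had 432 CPM in M5F5, 460 in M5F7, 284 in M5F12, 298 in M5F16, 357 in M5F19, 358 in M5F22, 353 in M5F55 and 344 CPM in M5F56. M5F5 and M5F7 stood above the other 6 and M5F12 and M5F16 below, with the middle 4 close together, over a 1.62-fold span. Ndufs5, a twin-cysteine protein on the intermembrane-space side, had 117 CPM in M5F5, 122 in M5F7, 71.8 in M5F12, 84.0 in M5F16, 83.8 in M5F19, 95.9 in M5F22, 97.2 in M5F55 and 107 CPM in M5F56. M5F12 was its lowest library and the span was 1.70-fold.

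Ndufa8, another twin-cysteine subunit, had 440 CPM in M5F12, a median of 540 and 602 CPM in M5F5. Ndufa1, a small membrane subunit encoded on the X chromosome in people, had 150 CPM in M5F12, a median of 168 and 234 CPM in M5F5. It was the member that stood highest in M5F5 beyond the common shift, by 0.27 on the log2 scale, and its span was 1.56-fold. Ndufa3 had 197 CPM in M5F12, a median of 258 and 286 CPM in M5F5. Ndufa11, which lies beside the mitochondrially encoded subunits, had 318 CPM in M5F16, a median of 398 and 466 CPM in M5F7. Ndufc1 had 65.5 CPM in M5F12, a median of 90.9 and 102 CPM in M5F5, and M5F22 rather than M5F7 was its second-highest library. Its partner Ndufc2 has no row under that symbol. The row LOC101844122, paired with Ndufc2 in the RefSeq table and not a member by the rule, ran from 161 CPM in M5F16 to 258 CPM in M5F7, a span of 1.61-fold.

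The distal membrane arm had 11 members, Ndufb1 to Ndufb11, and all 11 were highest in M5F5 or M5F7 and lowest in M5F12 or M5F16, with 10 lowest there under plain totals. Their median span was 1.37-fold, and 4 spanned 1.5-fold or more, against 42.2% of the genes tested. Their library deviation in M5F19 was -0.11 on the log2 scale, against -0.05 for the N module and -0.01 for both the Q module and the proximal arm. With plain totals it was -0.16, against -0.14 for the N module and -0.07 for both the Q module and the proximal arm.

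Ndufb10, a twin-cysteine subunit on the intermembrane-space side, had the widest span of all members and a pattern of its own. It had 601 CPM in M5F5, 611 in M5F7, 288 in M5F12, 445 in M5F16, 314 in M5F19, 476 in M5F22, 523 in M5F55 and 494 CPM in M5F56. M5F12 and M5F19 stood apart below the other 6, and the next library up, M5F16, was 1.41-fold above M5F19. The counts behind these values were 4160 to 8914 a library, and the exact 95% Poisson interval was 280 to 297 CPM in M5F12 and 598 to 624 CPM in M5F7. The chi-square value of Ndufb10, 3025, was the largest of the 37.

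The drop of Ndufb10 in M5F19 was not seen in the other members. After the common shift was subtracted, Ndufb10 lay at -0.57 in M5F19 on the log2 scale, and the lowest of the other members there, Ndufc1, at -0.17. The median of the other 6 libraries exceeded the mean of M5F12 and M5F19 by 1.69-fold for Ndufb10, against 0.967-fold to 1.33-fold for the other members. Ndufs4, Ndufa5, Ndufs5 and Ndufb3 also had M5F12 and M5F19 as their 2 lowest libraries, but the gap above the second-lowest library was at most 1.19-fold in any member but Ndufb10. Over all genes tested, 756 had M5F12 and M5F19 as their 2 lowest libraries, and 12 of them, Ndufb10 included, had a gap at least as wide. With any pair of libraries lowest, 123 genes had such a gap.

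**Figure D4:**
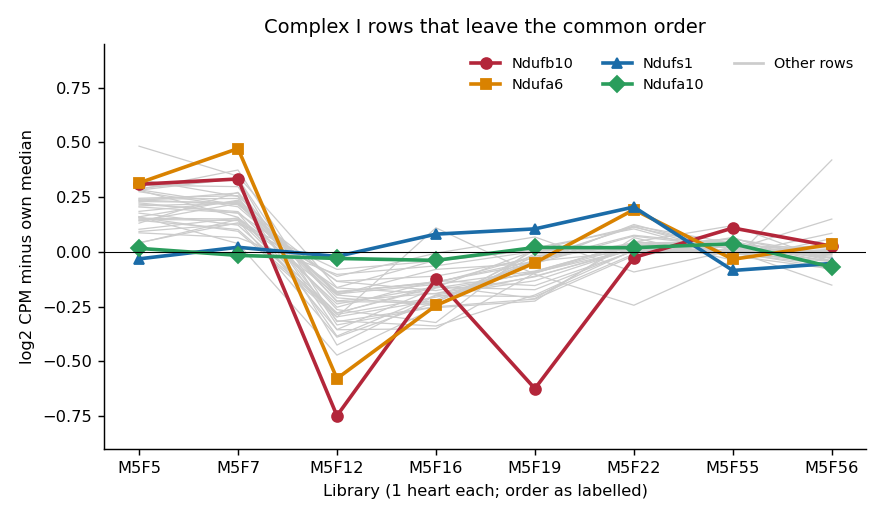
Log2 CPM minus the gene's own median for every complex I row in each library; lines only join the points of a gene, and the libraries have no order in time. Ndufb10 drops in M5F12 and M5F19, Ndufa6 spans 2.07-fold with the common order, and Ndufs1 and Ndufa10 do not rise in M5F5 and M5F7.

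Among the other distal subunits, Ndufb1 had 78.4 CPM in M5F5, 74.3 in M5F7, 47.7 in M5F12, 54.4 in M5F16, 56.9 in M5F19, 63.0 in M5F22, 62.1 in M5F55 and 62.6 CPM in M5F56. It followed the common order at a 1.64-fold span. Ndufb2 had 185 CPM in M5F12, a median of 234 and 295 CPM in M5F7, a span of 1.59-fold. Ndufb7, the remaining twin-cysteine subunit of the distal arm, had 172 CPM in M5F16, a median of 217 and 262 CPM in M5F7. For Ndufb7 the M5F16 value lay below M5F19 at 190 CPM, whereas for Ndufb10 M5F16 lay far above M5F19.

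Ndufb3 had 291 CPM in M5F12, a median of 354 and 400 CPM in M5F5. Ndufb4 had 334 CPM in M5F12, a median of 383 and 426 CPM in M5F5. Ndufb5 had 519 CPM in M5F16, a median of 593 and 661 CPM in M5F7, and with Ndufb4 it had the narrowest span of the distal arm, 1.27-fold. Ndufb6 had 218 CPM in M5F16, a median of 259 and 307 CPM in M5F7. Ndufb8 had 493 CPM in M5F12, a median of 560 and 660 CPM in M5F5. Ndufb8 kept only a 1.05-fold span after the common shift was subtracted, the smallest with Ndufv2. Ndufb9, an LYR-motif protein like Ndufa6, had 515 CPM in M5F12, a median of 627 and 693 CPM in M5F5. Ndufb11, X-linked in people, had 369 CPM in M5F12, a median of 405 and 472 CPM in M5F5.

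Subtracting the common shift left a median span of 1.17-fold over the 37 members, with 23 under 1.2-fold. The 3 members still at 1.5-fold or more were Ndufa4l2 at 1.62-fold, Ndufb10 at 1.61-fold and Ndufa6 at 1.51-fold. The shift was computed from the same members, so a narrower span after subtraction is a description of how far they moved together.

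The 2 members outside the enzyme differed from each other. Ndufa4 had 1326 CPM in M5F5, 1264 in M5F7, 992 in M5F12, 963 in M5F16, 1021 in M5F19, 1097 in M5F22, 1135 in M5F55 and 1081 CPM in M5F56. It moved with the complex I subunits, at a span of 1.38-fold. Ndufa4l2, a target of hypoxia-inducible factor, had 8.07 CPM in M5F5, 8.70 in M5F7, 6.38 in M5F12, 8.47 in M5F16, 7.31 in M5F19, 6.62 in M5F22, 7.64 in M5F55 and 10.5 CPM in M5F56. M5F56 alone stood high, and with 92 to 150 counts a library this row has the least precision of the 37.

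Other mitochondrial gene lists were set beside the members. Of 16 measured genes of complex V, the ATP synthase, 14 were highest in M5F5 or M5F7 and 15 lowest in M5F12 or M5F16, against 34.2% and 25.9% of the genes tested. The library deviations of complex V covered 0.44 on the log2 scale, close to the 0.45 of the complex I members. Atp5o, a subunit of the stalk, ran from 28.6 CPM in M5F12 to 78.4 CPM in M5F7, and Atp5a1, the alpha chain of the catalytic head, was lowest in M5F12 at 3443 CPM and highest in M5F22 at 4068 CPM. The 4 genes of complex II were mixed. Sdhb, its iron-sulfur subunit, was highest in M5F5 at 1089 CPM and lowest in M5F12 at 841 CPM, whereas Sdha, its flavoprotein, was highest in M5F22 at 4637 CPM and lowest in M5F7 at 3573 CPM. M5F22 was thus the highest library of Sdha, as it was of Ndufs1.

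The genes that build complex I moved less than its subunits. Of a list of 20 genes, assembly factors with the carrier protein gene Ndufab1, 15 were measured. Of these, 14 passed the chi-square test and 1 spanned 1.5-fold, against 86.4% and 42.2% of the genes tested. The 1 was Ndufaf2, with 12.3 CPM in M5F19 and 19.1 CPM in M5F56. The library deviations of the 15 genes covered 0.19 on the log2 scale. Ndufab1, which is itself part of the assembled enzyme, ran from 200 CPM in M5F12 to 271 CPM in M5F5, and Acad9, an assembly factor whose loss in people causes cardiomyopathy, from 117 CPM in M5F56 to 130 CPM in M5F19. The 14 genes of the citric acid cycle, which supplies NADH to complex I, covered 0.17, and 0 spanned 1.5-fold. The 76 mitochondrial ribosomal genes covered 0.24, with 51 highest in M5F5 or M5F7 and 51 lowest in M5F12 or M5F16, against 34.2% and 25.9% of the genes tested. With plain totals these counts were 43 and 29, against 29.8% and 18.0%.

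The regulators of respiratory genes did not follow the subunits. These 14 are factors and coactivators of nuclear respiratory genes, together with Tfam, Tfb2m and Polrmt, which act on mitochondrial DNA. Tfb2m and Polrmt were lowest in M5F7, and Tfam in M5F55. None of the 14 was highest in M5F5 or M5F7, against 34.2% of the genes tested, and 9 were lowest there, against 31.4%. Both counts were the same with DESeq2 size factors and with plain totals. The shares of the genes tested were then 32.6% and 29.8% for the highest, and 32.8% and 33.4% for the lowest. The library deviation of the 14 was -0.16 in M5F5 and -0.30 in M5F7 on the log2 scale, against 0.05 in M5F12 and 0.14 in M5F16. Ppargc1a, the coactivator PGC-1alpha, had 124 CPM in M5F5, 104 in M5F7, 183 in M5F12, 214 in M5F16, 210 in M5F19, 257 in M5F22, 160 in M5F55 and 147 CPM in M5F56. Its lowest libraries were those with the highest complex I levels.

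Ppargc1b, its relative, ran from 36.1 CPM in M5F5 to 102 CPM in M5F19, and the nuclear receptor gene Ppara from 24.9 CPM in M5F7 to 84.9 CPM in M5F19. The orphan receptor genes Esrrg, from 41.9 CPM in M5F7 to 75.5 CPM in M5F22, and Esrrb, from 3.57 CPM in M5F5 to 10.1 CPM in M5F16, were likewise lowest in the libraries richest in complex I. Esrra, another orphan receptor of this family, ran from 107 CPM in M5F22 to 139 CPM in M5F19. Of the 14, 12 passed the chi-square test and 8 spanned 1.5-fold or more, against 86.4% and 42.2% of the genes tested. Nrf1 (adjusted p = 0.267) and Gabpb1 (adjusted p = 0.0502) did not pass the chi-square test after Benjamini-Hochberg adjustment. They encode a nuclear respiratory factor and the partner subunit of another. These were the 2 regulators lowest in M5F12 or M5F16, against 25.9% of the genes tested, and both were highest in M5F56. Gabpb1 lay above its median of 11.9 CPM in M5F5, at 12.7 CPM, and in M5F7, at 13.8 CPM.

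**Figure D5:**
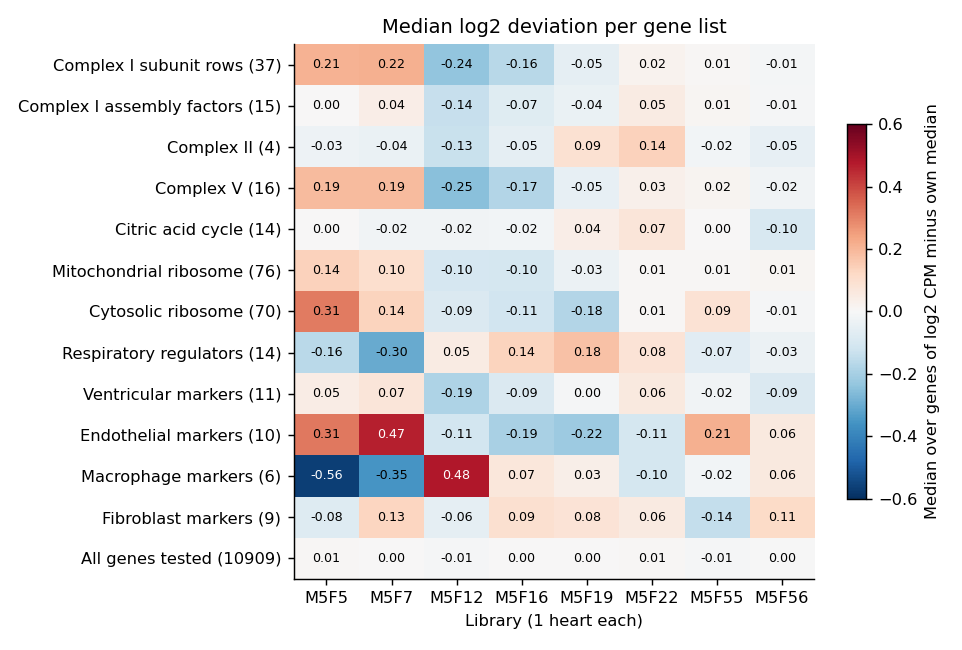
Library deviation of each gene list, the median over its genes of log2 CPM minus the gene's own median, with the number of genes tested in parentheses and libraries across. Complex I and complex V share a row pattern, from 0.22 and 0.19 in M5F7 to -0.24 and -0.25 in M5F12, the respiratory regulators are at -0.30 in M5F7, and all genes tested stay within 0.01 of 0 on the TMM scale.

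Some cell type markers also differed between these libraries. All 10 of 10 endothelial markers were highest in M5F5 or M5F7, against 34.2% of the genes tested. With plain totals 8 of the 10 were, against 29.8%. The summed level of these markers was 1790 CPM in M5F5, 1966 in M5F7 and 1196 to 1670 CPM in the other 6. The 11 ventricular markers had a library deviation of -0.19 in M5F12 on the log2 scale, and their summed level ran from 80533 CPM in M5F12 to 98957 CPM in M5F5. The 6 macrophage markers tested had a summed level of 66.7 CPM in M5F5, 80.4 in M5F7 and 129 CPM in M5F12. Of the 70 cytosolic ribosomal genes, 65 were highest in M5F5 or M5F7, and 64 with plain totals. The shares over the genes tested were the same 34.2% and 29.8%. On the TMM scale M5F5 was highest for 64 of the 65 and M5F7 for 1. M5F19 was lowest for 40 of the 70, as for 1634 of the 10909 genes tested. M5F12 or M5F16 was lowest for 27, against 25.9%. The library deviation of the 70 genes was 0.31 in M5F5, 0.14 in M5F7 and -0.18 in M5F19. The 9 fibroblast markers ran from 1810 CPM in M5F55 to 2208 CPM in M5F7 in sum, and the 9 smooth muscle and pericyte markers from 1348 CPM in M5F16 to 1797 CPM in M5F7. The 5 atrial markers tested ran from 1427 CPM in M5F7 to 2591 CPM in M5F5. Most of that atrial sum was Pam, at 1347 CPM in M5F7 and 1586 in M5F5, and Nppa, at 53.5 and 971 CPM. Of 12 long muscle transcripts 11 were tested, and they covered 0.22 on the log2 scale. Of the 11, 3 were highest in M5F5 or M5F7, against 34.2% of the genes tested. Lowest in M5F12 or M5F16 was 1, against 25.9%, and lowest in M5F5 or M5F7 were 5, against 31.4%. Nebl and Dmd were lowest in M5F7 and highest in M5F16, whereas Ttn was highest in M5F7 and lowest in M5F22. The part of these marker and ribosomal differences in the complex I differences was not tested.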

How the data were processed

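PolyA RNA of 8 hearts was sequenced. The authors deposited whole-number counts per gene, taken here as unnormalized. The submitters' processing notes name RSEM, HISAT2 2.0.4 and Bowtie2 2.2.5 without a role; the build, the annotation and any rounding: not given in the sources used here. Every column matched a label, and 0 were unused.

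Scaling used TMM (edgeR 4.0.16, R 4.3.3; factors 0.960 to 1.05), and log2 CPM a prior count of 0.5. The filter kept 10909 of 20360 genes at a mean count of 50. Fold was the highest over the lowest library. Counts were tested against equal relative abundance by chi-square, Benjamini-Hochberg adjusted over all genes kept, threshold 0.05; this measures counting error only, and reads lacking molecular identifiers can be copies of the same molecule. The procedure was tested on simulated data.

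Members and lists were chosen with earlier results of these data known. The rule named all members, with values per library for the 6 widest, the 3 narrowest, Ndufa4 and Ndufa4l2. Of the members, 1 is not reported here and enters sums and counts only. Ndufs1 was added after its values were seen, and Ppargc1a is also given per library. From other lists, up to 2 of the most abundant and 2 of the widest genes could be named, and any regulator. Alternatives were DESeq2 1.42.0 size factors, plain totals, other filters, a prior count of 5 and leaving out each library. Sequences were not used here.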

Additional observations from a re-analysis of the deposited data

How the results depend on the processing

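The number of members spanning 1.5-fold, 11 of 37, was 7 to 11 on leaving out each library, lowest without M5F12, and the number spanning 2-fold was 0 to 2, with 0 without M5F12 and 1 without M5F7. With a mean count of at least 500, 1 member spanned 2-fold, since Ndufa6 was then filtered out. The median span of the members, 1.40-fold, was 1.35-fold with total counts and 1.33-fold to 1.40-fold on leaving out each library. With total counts the gap between the 2 lowest libraries of Ndufb10, M5F12 and M5F19, and the next was 1.49-fold in place of 1.41-fold. Ndufa4l2 fell below the chi-square threshold without M5F56, at a range of 0.45 on the log2 scale. The other alternatives left 93 summary values and 468 values of single genes or libraries within the limits set. Counts of members could differ by a factor of 1.5, so 8 members spanning 1.5-fold with total counts, in place of 11, was within the limit. The limit was the median counting error, 0.0286 on the log2 scale, for the median span and the Ndufb10 gap. It was the SD of the 8 library deviations, 0.159, for the summed level and the library deviations. Single-gene ranges had to stay on the same side of the chi-square threshold. Leaving out a library can only narrow a range, by construction, apart from small changes in scaling. With total counts the library deviations nearest 0 changed sign, M5F22 to -0.01 and M5F56 to 0.04, and M5F19 moved to -0.14; those of M5F5, M5F7, M5F12 and M5F16 kept their sign under every setting run. No paired analysis was possible because the labels give no library a group. Depth limits the row of Ndufa4l2 most, with 92 counts in its lowest library.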
